A study of Ovis aries with 6 samples.

Results

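BMPR1A and BMPR2, receptors for bone morphogenetic proteins (BMPs), and GREM1 and NOG, which encode the secreted BMP antagonists gremlin and noggin, were measured in cultured granulosa cells from the ovary of Hu sheep (Ovis aries). They were chosen by name. All 4 are among the 1620 genes of the deposited table, and all 4 passed the filter on low counts.

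Bone morphogenetic proteins are secreted growth factors of the TGF-beta family. They bind a complex of type I and type II receptor kinases at the cell surface, in which the type II receptor activates the type I receptor and the type I receptor phosphorylates SMAD proteins that enter the nucleus. Gremlin and noggin bind BMP ligands outside the cell and keep them from the receptors. In the ovary, BMPs made by the oocyte, the granulosa and the theca are known to modulate the response of granulosa cells to follicle-stimulating hormone and to restrain progesterone production, and in sheep the pathway is known for its bearing on ovulation rate.

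The cells were granulosa cells, the somatic cells around the oocyte, taken from ovarian follicles of at least 3 mm of slaughtered, sexually mature Hu ewes and grown in culture. One group received a small interfering RNA against INHBA (siINHBA) and the other a negative-control RNA (siNC), both carried by the same lipid reagent, and RNA was extracted 24 h later. INHBA encodes the beta A subunit of activin A and inhibin A, ligands of the same growth factor family. Each group held 3 RNA-sequencing libraries. Whether the libraries of a group stem from separate cultures or ewes is not stated, and p-values cover only the differences among these libraries, which could be technical. Levels are given as raw read counts and as FPKM, which scale reads to the length of the gene model and to the mapped reads of the library. The siRNA target itself stood at 21.2, 21.8 and 18.5 FPKM in the controls against 8.02, 6.51 and 7.54 FPKM with its siRNA.

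The table holds only genes that the authors had called changed, so every gene in it had to differ between the groups to be present. Counts over the listed genes summed to between 2781548 and 2948524 in siNC and to between 1590871 and 2042924 in siINHBA, whereas library depth, read back by dividing counts by FPKM, spanned only 0.952 to 1.17 relative to siNC library 1. With that depth as the scaling, 100% of the listed genes passed an adjusted p of 0.05 in edgeR's quasi-likelihood test, 65.7% of them as lower and 34.3% as higher in siINHBA, and the groups did not overlap in FPKM for 99.9% (65.6% lower and 34.3% higher). That each of the 4 genes passed is therefore the background of the table and not a result about BMP genes. TMM, a scaling that takes most genes to be unchanged, was an alternative, though a table of called genes does not meet that assumption. Computed over the listed genes, it moved the median log2 fold change up by 1.09. With it 22.5% of the genes passed as lower and 34.3% as higher. With DESeq2 and the size factors it computes from the table, these shares were 22.2% and 34.3%.

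Both receptors were lower after the INHBA siRNA, by similar amounts. BMPR1A, a type I receptor, was at 34.5% of its control level and BMPR2, a type II receptor, at 32.3%. In this bulk measurement fewer cells of a type and less RNA per cell cannot be told apart.

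BMPR1A had 1394, 1327 and 1501 counts in the siNC libraries and 586, 493 and 378 counts in the siINHBA libraries. In FPKM the controls stood at 6.70, 6.27 and 6.96, and the siINHBA libraries at 2.99, 2.29 and 1.58. The 3 control libraries lay close together, the third siINHBA library was the lowest, and the lowest control value was 2.10 times the highest siINHBA value. The mean fell from 6.65 ± 0.35 to 2.29 ± 0.70 FPKM (SD, n = 3 each), or -1.54 on the log2 scale in edgeR (SE 0.21, adjusted p = 4.1e-05). With TMM over the listed genes the log2 fold change of BMPR1A was -0.46 and did not pass (edgeR adjusted p = 0.066).

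BMPR2 had 444, 535 and 495 counts in siNC and 165, 184 and 133 counts in siINHBA. Levels in the controls were 3.76, 4.40 and 3.996 FPKM, against 1.46, 1.497 and 0.957 FPKM with siINHBA. As for BMPR1A, the third siINHBA library was the lowest, and the groups were separated by a gap of 2.51-fold. The mean fell from 4.05 ± 0.32 to 1.31 ± 0.30 FPKM (SD, n = 3 each), or -1.63 on the log2 scale in edgeR (SE 0.19, adjusted p = 2.0e-05). BMPR2 still passed with TMM, at -0.55 (edgeR adjusted p = 0.025).

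The antagonists went in opposite directions: GREM1 was lower and NOG higher in siINHBA. GREM1, a DAN-domain protein best known for blocking BMP ligands in limb and kidney development and made by cumulus granulosa cells in several mammals, had 454, 583 and 466 counts in siNC and 167, 281 and 178 counts in siINHBA. The control libraries were at 5.89, 7.34 and 5.76 FPKM, and the siINHBA libraries at 2.27, 3.499 and 1.96 FPKM. The second library was the highest of each group, and the gap between the groups, at 1.65-fold, was the narrowest of the 4 genes. The mean fell from 6.33 ± 0.88 to 2.58 ± 0.81 FPKM (SD, n = 3 each), or -1.29 on the log2 scale in edgeR (SE 0.22, adjusted p = 2.3e-04). With TMM the value of GREM1 was -0.21 and did not pass (edgeR adjusted p = 0.46).

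NOG, whose product noggin is a small secreted protein that masks the receptor-binding faces of BMP ligands, had 178, 202 and 233 counts in siNC and 525, 399 and 521 counts in siINHBA. Control levels were 6.89, 7.62 and 8.62 FPKM, and siINHBA levels were 21.4, 14.9 and 17.2 FPKM. Every siINHBA library lay above every control library, the first being the highest and the second the lowest. The mean rose from 7.71 ± 0.87 to 17.8 ± 3.29 FPKM (SD, n = 3 each), to 2.32 times the control level, or 1.21 on the log2 scale in edgeR (SE 0.18, adjusted p = 8.2e-05). With TMM the log2 fold change of NOG was 2.30 (edgeR adjusted p = 7.7e-07). As many genes, 555, passed as higher with TMM as with the recovered depth, so staying higher is the background of the table. For each of the 4 genes an exact two-sided permutation test over the libraries gave p = 0.1, the smallest that 3 against 3 allows. Groups that do not overlap always give this value, and 99.9% of listed genes have such groups. It is therefore no result about the 4 genes.

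**Figure D1:**
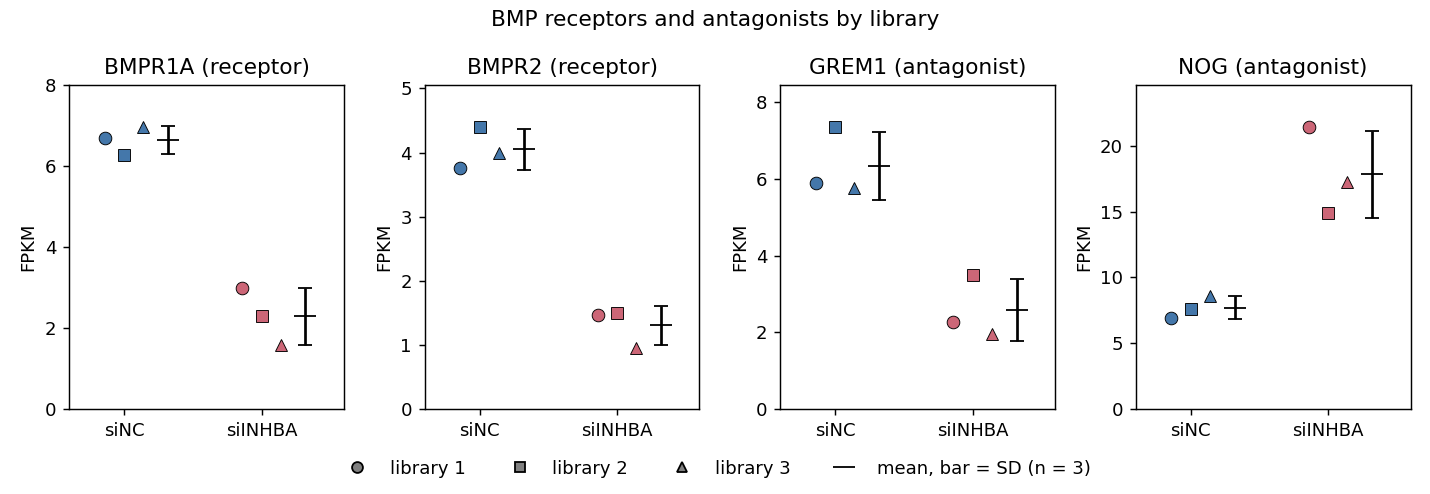
FPKM of BMPR1A, BMPR2, GREM1 and NOG (vertical axes, each from 0 and on its own scale) in the 3 siNC and the 3 siINHBA libraries. Each symbol is a library, and the black line and bar are the mean and SD of 3. BMPR1A, BMPR2 and GREM1 sit lower and NOG higher in siINHBA, with no overlap between the groups.

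NOG had the highest and BMPR2 the lowest mean FPKM of the 4 genes in both groups. In siNC the mean FPKM ran from NOG through BMPR1A and GREM1 to BMPR2, but NOG overlapped BMPR1A and BMPR1A overlapped GREM1 between libraries, so that of the neighbours in this order only GREM1 and BMPR2 were separated. In siINHBA, NOG stood at least 14.9 FPKM, above the other 3 genes, while GREM1 and BMPR1A overlapped at 1.96 to 3.499 and 1.58 to 2.99 FPKM, and BMPR2, at 0.957 to 1.497 FPKM, was below both. These levels are per length of the gene model. Counts divided by FPKM, a quantity that grows with that length, were 8.0 times as large for BMPR1A as for NOG, 4.58 times for BMPR2 and 2.99 times for GREM1. NOG therefore had the fewest reads in siNC, although its FPKM was the highest of the 4.

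Spread between libraries was larger in siINHBA than in siNC for all 4 genes. The coefficient of variation of FPKM was 5.22% in siNC and 30.7% in siINHBA for BMPR1A, 7.96% and 23.2% for BMPR2, 13.9% and 31.6% for GREM1, and 11.3% and 18.5% for NOG. Counting error alone would give between 4.54% (BMPR1A) and 7.89% (BMPR2) in siINHBA, below the spread observed for each gene. A wider spread in siINHBA was also seen across the table, where the median coefficient of variation of a listed gene was 8.81% in siNC and 17.4% in siINHBA. BMPR1A and GREM1 were among the more variable genes, with 83.0% and 84.2% of listed genes varying less in siINHBA.

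Ratios between the genes within a library do not depend on how libraries are scaled to each other. Because the table lists only called genes, a ratio of a listed higher gene to a listed lower gene had to differ between the groups. The ratios with NOG are therefore given as a description of their size, with no test. The ratio of NOG to BMPR1A was 1.03, 1.21 and 1.24 in the siNC libraries and 7.16, 6.50 and 10.9 in the siINHBA libraries. On the log2 scale it was higher by 2.78 (SE 0.24), a 6.89-fold difference with no overlap. The ratio of NOG to BMPR2 was 1.83, 1.73 and 2.16 in siNC and 14.6, 9.95 and 18.0 in siINHBA, a log2 change of 2.86 (SE 0.27). In siNC noggin transcripts were about level with those of the type I receptor, and in every siINHBA library they exceeded them several-fold.

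The ratio of GREM1 to NOG was 0.855, 0.964 and 0.668 in siNC and 0.106, 0.235 and 0.114 in siINHBA. Its log2 change was -2.53 (SE 0.40). Noggin made up 53.9%, 50.9% and 59.9% of the summed FPKM of both antagonists in siNC and 90.4%, 81.0% and 89.8% in siINHBA. The second siINHBA library, which had the highest GREM1 and the lowest NOG of its group, had the smallest noggin share. For the 3 ratios with NOG the groups did not overlap, which the listing of the genes in opposite directions had fixed.

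Among the other 3 genes, all listed as lower, the proportions overlapped between the groups. Over the 6 pairs of the 4 genes the lowest p that an exact two-sided permutation test allows is 0.1. The ratio of BMPR1A to BMPR2 was 1.78, 1.43 and 1.74 in siNC and 2.04, 1.53 and 1.66 in siINHBA, overlapping ranges with a log2 change of 0.08 (SE 0.16, exact permutation p = 0.7). Between any siINHBA and any siNC library the log2 ratio differed by -0.22 to 0.52. That range describes pairs of single libraries and is no interval for the change between the groups. GREM1 relative to BMPR1A changed by 0.25 on the log2 scale (SE 0.34, exact permutation p = 0.6) with library differences from -0.62 to 0.88. GREM1 relative to BMPR2 changed by 0.33 (SE 0.18, exact permutation p = 0.3) with library differences from -0.11 to 0.70. The type I receptor made up 62.1% ± 2.9 of the summed receptor FPKM in siNC and 63.3% ± 3.4 in siINHBA (SD, n = 3).

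Summed over both genes of each kind, transcripts of GREM1 and NOG were higher and those of BMPR1A and BMPR2 lower in siINHBA. The antagonist sum was 12.8, 14.96 and 14.4 FPKM in the controls, against 23.7, 18.4 and 19.2 FPKM with siINHBA. The receptor sum was 10.5, 10.7 and 10.96 FPKM in the controls, against 4.45, 3.79 and 2.54 FPKM with siINHBA. Antagonist transcripts were thus 1.22 to 1.40 times the receptor transcripts in siNC and 4.86 to 7.55 times in siINHBA, with the third siINHBA library, where the receptors were lowest, at the top. NOG alone was higher within the antagonist sum, since GREM1 was lower. Each of the 4 genes had to differ to be listed, so the change of this ratio is a description and was not tested. The receptor sum holds only 2 of the 7 receptors in a list of BMP genes, and the antagonist sum GREM1 and NOG only. Of 16 secreted antagonists and modulators in that list 3 were listed, FSTL1 among them. The 3 together summed to 69.3 to 72.0 FPKM in siNC and 46.4 to 53.7 FPKM in siINHBA. With FSTL1 the sum was therefore lower in siINHBA.

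**Figure D2:**
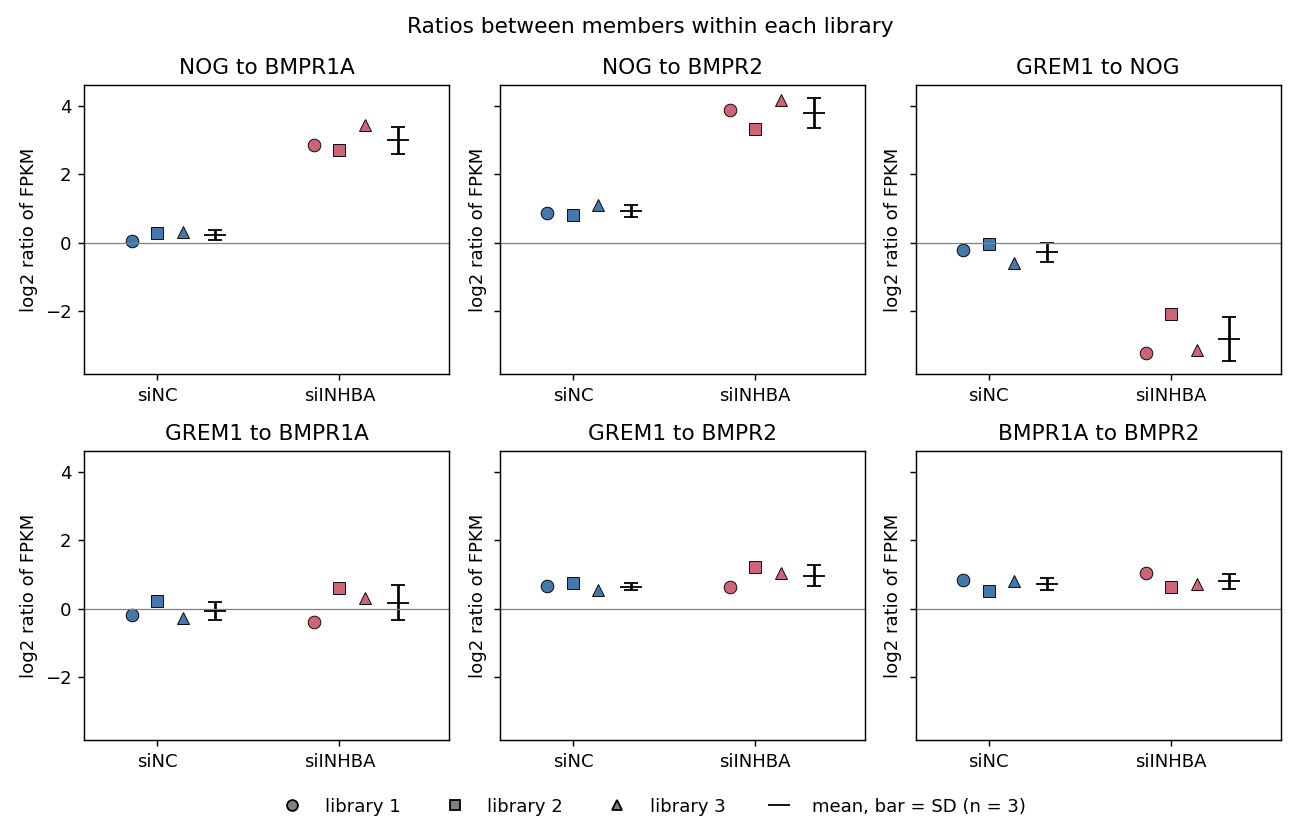
Log2 ratio of FPKM between pairs of the 4 genes within each library (vertical axis, shared by all panels) for siNC and siINHBA. Symbols are libraries, and the black line and bar are the mean and SD of 3. The 3 panels with NOG show separated groups, and in the other 3 panels the groups overlap.

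Set against all listed genes, BMPR1A, BMPR2 and GREM1 lay within the main body of lower genes. Ordered by log2 fold change, BMPR2 had the 332nd, BMPR1A the 407th and GREM1 the 637th largest fall among 1065 lower genes, whose median log2 fold change was -1.40. NOG had the 448th largest rise among 555 higher genes, whose median was 1.48. Relative to the median of all listed genes, the log2 fold change was -0.39 for BMPR1A, -0.47 for BMPR2, -0.13 for GREM1 and 2.37 for NOG with the recovered depth, and -0.39, -0.48, -0.14 and 2.37 in that order with TMM. INHBA, the siRNA target, had the 445th largest fall, at -1.49, near the median of the lower genes. With TMM INHBA was at -0.41 (edgeR adjusted p = 0.018). Relative to the median of all listed genes it was at -0.33 with the recovered depth and -0.34 with TMM. The authors' deposited table gives log2 fold changes of -1.54 for BMPR1A, -1.63 for BMPR2, -1.28 for GREM1 and 1.12 for NOG. The smallest absolute value in the authors' deposited table is 1.00, so NOG was close to the edge of what was listed.

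**Figure D3:**
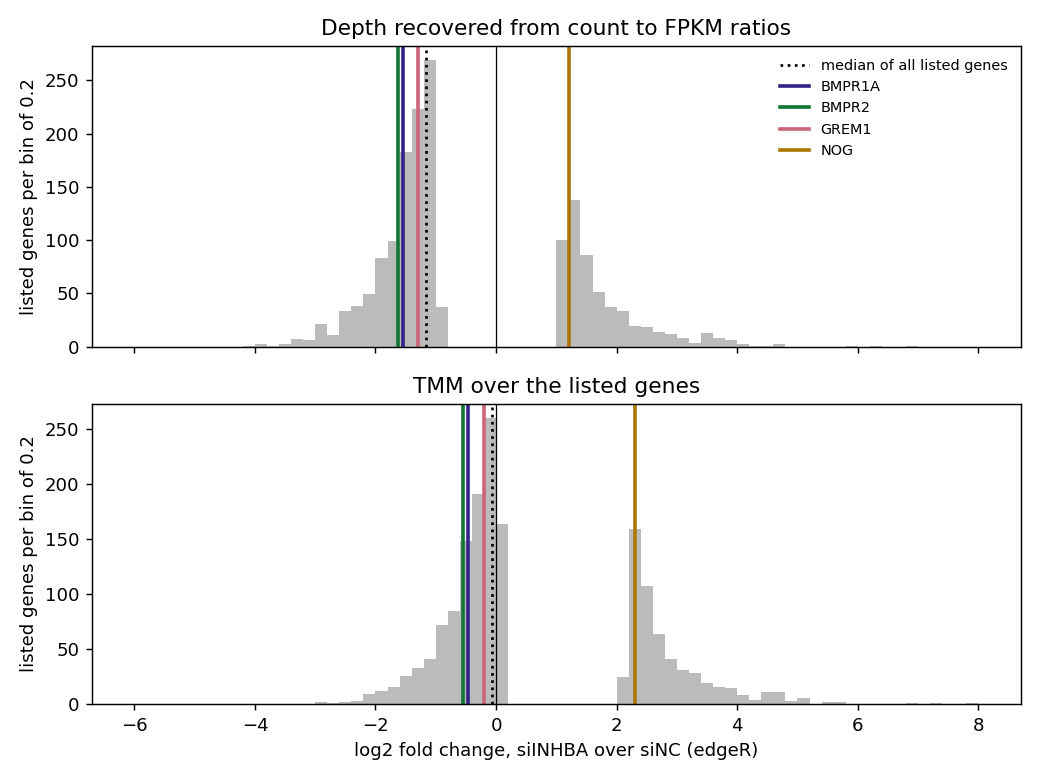
Distribution of the edgeR log2 fold change of siINHBA over siNC (horizontal axis) for the 1620 listed genes (vertical axis, genes per bin), with the recovered depth (top) and with TMM over the listed genes (bottom). Coloured lines mark the 4 genes and the dotted line marks the median of all listed genes. BMPR1A, BMPR2 and GREM1 stand in the lower body and NOG near the inner edge of the higher body, and TMM moves both bodies up by 1.09.

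Of 69 genes in a list of BMP ligands, receptors, co-receptors, antagonists, transducers, inhibitors and targets, 8 were listed, 2 of them higher and 6 lower. That split is near the 34.3% higher and 65.7% lower of all listed genes. Their median log2 fold change was -1.16, beside a median of -1.16 over all listed genes. With TMM 2 of the 8 passed as higher and 2 as lower. The list's 14 ligands, 4 SMAD transducers and 13 target genes had no listed member, and of its 7 receptors only BMPR1A and BMPR2 were listed. Nothing can be said of the change of the genes that were not listed, among them BMPR1B, another type I receptor.

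The co-receptors split. RGMB, a membrane-anchored co-receptor that enhances BMP signalling, had 3.45, 3.38 and 4.03 FPKM in the controls, against 9.16, 7.81 and 7.94 FPKM with siINHBA. Its rise on the log2 scale was 1.20 in edgeR (SE 0.13, adjusted p = 1.1e-05), close to the change of NOG, and by 2.28 with TMM. TGFBR3, or betaglycan, a co-receptor for TGF-beta and inhibin that also binds BMPs, fell from 1.23 ± 0.14 to 0.324 ± 0.041 FPKM (SD, n = 3 each), at -1.92 on the log2 scale (SE 0.19, edgeR adjusted p = 6.2e-06), and still passed with TMM at -0.83. Its fall was larger than that of either BMP receptor, and the difference was not tested. FSTL1, a secreted follistatin-like modulator, and PMEPA1, a membrane protein that restrains SMAD signalling, had log2 fold changes of -0.96 and -1.02. The authors' deposited values are -1.01 and -1.06. With TMM both were just above 0, at 0.12 and 0.07, and did not pass (edgeR adjusted p = 0.32 and 0.65).

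Of 15 genes in a list of the related activin and TGF-beta pathways 5 were listed, 1 higher and 4 lower, beside 34.3% and 65.7% of all listed genes. Their median log2 fold change was -1.49, against -1.16 over all listed genes. That median is the value of INHBA, the siRNA target, which is among the 4 lower genes. ACVR1B, a type I activin receptor, rose from 4.98 ± 0.01 to 11.2 ± 1.38 FPKM (SD, n = 3 each), or 1.16 on the log2 scale in edgeR (SE 0.12, adjusted p = 9.4e-06), whereas TGFBR2, the type II TGF-beta receptor, was at -1.33 and did not pass with TMM (edgeR adjusted p = 0.11). Among the listed receptor kinases of the lists the type I activin receptor was therefore higher, and BMPR1A, BMPR2 and TGFBR2 lower. The inhibin and activin subunits INHA and INHBE had log2 fold changes of -1.79 and -1.50, beside -1.49 for the siRNA target. With TMM INHA still passed, at -0.70 (edgeR adjusted p = 0.0069). INHBE, with 36, 97 and 102 counts in siINHBA, did not pass with TMM (-0.41, edgeR adjusted p = 0.31).

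**Figure D4:**
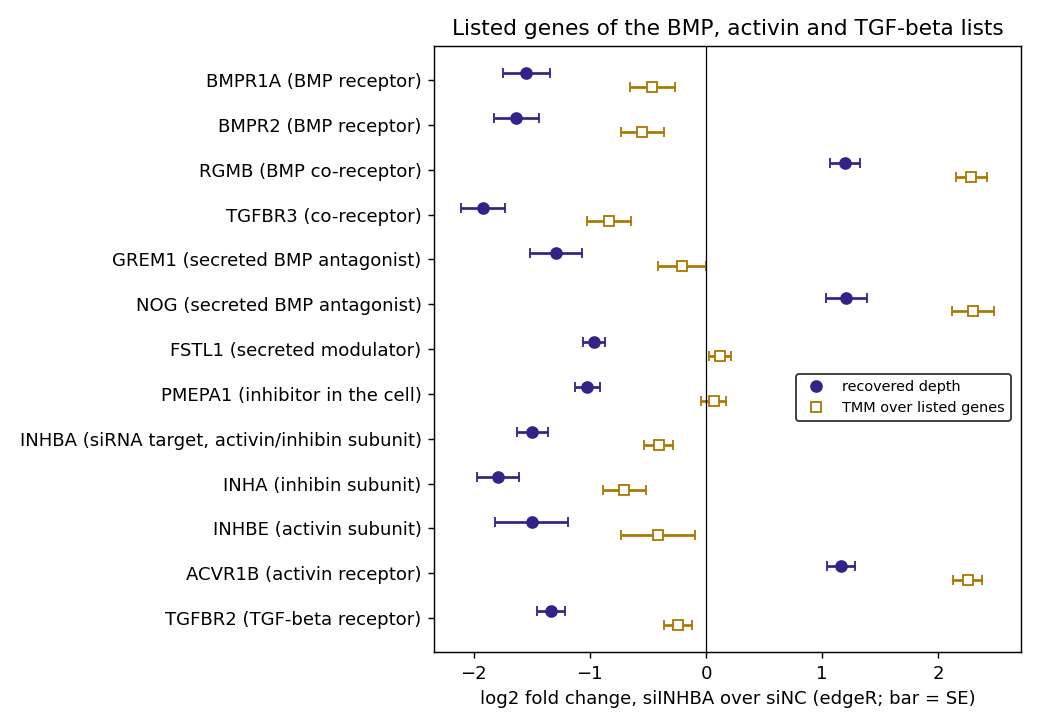
Log2 fold change of siINHBA over siNC (horizontal axis, edgeR, bars are SE) for the listed genes of the BMP, activin and TGF-beta lists, with the recovered depth (filled circles) and with TMM over the listed genes (open squares). NOG, RGMB and ACVR1B are higher under both scalings, and FSTL1 and PMEPA1 cross 0 with TMM.

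All 4 genes carry the KEGG annotation of the TGF-beta signalling pathway, as do 8 other listed genes. Of these 8, 2 were higher and 6 lower, beside 34.3% and 65.7% of all listed genes. INHBA, the siRNA target, is among the 6. The other lower genes of this annotation included PPP2R1B, a scaffold subunit of protein phosphatase 2A, at -1.73 on the log2 scale, THSD4, a matrix protein, at -1.57 and the pocket protein gene RBL1 at -1.26. With TMM PPP2R1B still passed (-0.64, edgeR adjusted p = 4.2e-04). THSD4 (-0.48, edgeR adjusted p = 0.10) and RBL1 (-0.18, edgeR adjusted p = 0.57) did not. Both receptors are also annotated to the Hippo pathway, with 7 higher and 14 lower listed genes, about the same split as in the whole table, and to cytokine-receptor interaction, with 32 higher and 14 lower. The authors' keyword sections place NOG and GREM1 under Wnt, and GREM1 also under focal adhesion and NF-kappaB.

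The genes whose profiles over the 6 libraries were most like those of the receptors had, like the receptors, their lowest level in the third siINHBA library. Likeness was the root mean square difference of log2(FPKM + 1), centred on the siNC mean, among 1415 other genes with a symbol. The added 1 narrows changes at low FPKM, so genes near in this measure can differ in log2 fold change. Genes picked this way share the order of the libraries in part through the choice itself. CDC14B, a phosphatase, was nearest to BMPR1A at 0.052, with 2.73, 2.24 and 1.53 FPKM in siINHBA, followed by the zinc transporter SLC30A4 at 0.057 and the polarity scaffold LIN7C at 0.062. TCF12, a basic helix-loop-helix transcription factor, was nearest to BMPR2 at 0.040, followed by the Mediator kinase CDK19 at 0.051 and the ephrin receptor EPHA7 at 0.052. Their log2 fold changes in edgeR were -1.24, -1.66 and -1.21 in that order, beside -1.63 for BMPR2. Across the table the third siINHBA library was the lowest of its group in 39.6% of the 1065 lower genes.

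GREM1 was most like GLDN, which encodes the extracellular protein gliomedin, at 0.061, then the cholesterol exporter ABCA1 at 0.075 and PRRC2C at 0.076. In GLDN the siINHBA levels were 6.16, 9.37 and 6.18 FPKM, highest in the second library as in GREM1 and in 42.7% of the lower genes. NOG was most like CMTM7 at 0.062, with 44.2, 32.7 and 36.2 FPKM in siINHBA against 16.1 to 17.5 FPKM in siNC. C15H11orf96 at 0.065 and ALDH1A1, a retinaldehyde dehydrogenase, at 0.071 came next. The log2 fold changes of CMTM7, C15H11orf96 and ALDH1A1 in edgeR were 1.16, 1.86 and 1.20, beside 1.21 for NOG. ALDH1A1 had 10.1, 7.54 and 8.70 FPKM in siINHBA, again highest in the first and lowest in the second library. Across the 555 higher genes the first siINHBA library was the highest of its group in 47.2% and the second the lowest in 38.2%. With 6 libraries in 2 groups such likeness is a description of these libraries.

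Of 53 markers bearing on the makeup of the cultures 12 were listed, 1 higher and 11 lower, beside 34.3% and 65.7% of all listed genes. A listed marker had to differ between the groups, and nothing can be said of the change of the markers not listed. Of 14 granulosa markers 4 were listed, 1 higher and 3 lower. The summed level of the 4 was 175.5 to 186.5 FPKM in siNC and 57.5 to 74.7 FPKM in siINHBA, most of it CYP11A1. HSD17B1, an enzyme of estradiol synthesis, went the other way, from 1.01 ± 0.19 to 2.78 ± 0.37 FPKM (SD, n = 3 each), at 1.41 on the log2 scale in edgeR (SE 0.22, adjusted p = 1.3e-04) and 2.50 with TMM. Of 13 markers of theca, stroma and smooth muscle 2 were listed, DES and PDGFRB, at a summed 63.0 to 65.9 FPKM in siNC and 16.1 to 21.6 FPKM in siINHBA. The 2 listed of 6 epithelial markers summed to 31.9 to 33.6 FPKM in siNC and 12.5 to 12.7 FPKM in siINHBA, and the oocyte marker KIT, 1 of 7, to 5.35 to 5.40 and 0.897 to 1.54 FPKM. The listed endothelial markers, 2 of 7, reached at most 0.679 FPKM, and the leukocyte marker CSF1R, 1 of 6, at most 0.462 FPKM. No listed marker was at 0 in every library, and the part of these cells in the change of the BMP genes was not tested.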

How the data were processed

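Poly(A) RNA of 3 siINHBA and 3 siNC libraries was captured with oligo(dT) beads and copied with random hexamers, per the labels' protocols. Per the file headers, the authors deposited for each library the raw count and the FPKM of every listed gene. The authors' table adds, per the file headers, an adjusted p-value (FDR) and a log2 fold change from a test of their own. For the aligner, counter, strand setting, test and genome build nothing was given in the sources consulted, so no coordinates or sequences are printed. Deposited FDR values reached 0.0090 at most, and 4 lines with no complete gene were left out.

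Library depth was recovered as the median ratio of count to FPKM of the 702 genes that exceeded 200 counts throughout. Across libraries the members' own ratios departed from this depth by at most 2.29%, and that of INHBA by 16.1%, so FPKM and counts of INHBA differ by more than depth. Counts were tested over all 1620 genes with edgeR 4.0.16 in R 4.3.3 (glmQLFit, glmQLFTest, filterByExpr with a minimum count of 10, no block) and Benjamini-Hochberg adjustment at 0.05. The standard error is the absolute log2 fold change over the square root of F. Ratios within libraries used FPKM and an exact two-sided permutation test. Alternatives used TMM, DESeq2 1.42.0, limma 3.58.1 on log2(FPKM + 1) or with 0.1 or 0.5, filters, a replicate block and leaving out each library.

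Replicate pairs differed beyond sampling noise (chi-square per gene averaging 5.33 to 8.75 among siNC and 17.6 to 47.4 among siINHBA libraries). The edgeR script was tested on simulated data. Named genes were the 4 members, INHBA, listed genes of the BMP, activin, TGF-beta and marker lists, and the 3 nearest profiles of each member. Genes of the KEGG annotation and the chromosome neighbours were named in addition. A gene of the lists is not reported here and was left out of its list's counts. The members, lists and tests were chosen with earlier results of these data known.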

Additional observations from a re-analysis of the deposited data

How the results depend on the processing

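Scaling moved values and calls most. With TMM over the listed genes the log2 fold change of BMPR1A (-0.46) and GREM1 (-0.21) no longer passed, nor did GREM1 (-0.22) in DESeq2 under size factors from the table (adjusted p = 0.46 in each for GREM1). Both scalings centre the table on its middle and so remove by construction a shift shared by most genes. They gave 364 and 359 lower genes in place of 1065, with 555 higher in each, and turned FSTL1 (0.12 and 0.12) and PMEPA1 (0.067 and 0.065) positive. BMPR1A passed with DESeq2 under those size factors, at -0.47 (adjusted p = 0.038). Of 64 values of the 4 members under the alternatives, 61 kept direction and call. Of 571 values of the other named genes 533 did, 34 no longer passed and 4 reversed. With the recovered depth 100% of the listed genes passed, so a kept call is the background of the table. A kept call also does not mean a kept size. Relative to the median of all listed genes, a reference added after the data were seen, NOG ranged down to 1.82 in limma with log2(FPKM + 1).

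Leaving out each library in turn gave log2 fold changes of -1.79 to -1.33 for BMPR1A, -1.75 to -1.45 for BMPR2, -1.58 to -1.13 for GREM1, 1.06 to 1.32 for NOG and -1.64 to -1.38 for INHBA, with 1063 to 1065 genes lower. The change in the log2 ratio lay between 2.56 and 2.93 for NOG to BMPR1A, 2.67 and 3.10 for NOG to BMPR2, and -2.90 and -2.33 for GREM1 to NOG. It lay between 0.03 and 0.54 for GREM1 to BMPR1A, 0.20 and 0.49 for GREM1 to BMPR2, and -0.045 and 0.16 for BMPR1A to BMPR2, which changed sign without the second siNC or the first siINHBA library.

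No label says that replicate numbers pair the libraries. Deviations from the group means correlated at 0.11, 0.35 and -0.01 between libraries sharing a number, against -0.27 to 0.18 otherwise, which does not meet the limit set for pairing. With a replicate block in edgeR the log2 fold changes were -1.59 for BMPR1A, -1.65 for BMPR2, -1.32 for GREM1, 1.20 for NOG and -1.51 for INHBA. All passed, but without the block 100% of the listed genes passed, so passing is the background of the table.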

Other observations

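In the RefSeq gene table for the sheep assembly ARS-UI_Ramb_v3.0, used for names and order only, the nearest protein-coding neighbours on both sides of the 4 genes are 8 genes, of which 2 are listed. LDB3, a muscle sarcomere protein gene beside BMPR1A, was at -2.04 on the log2 scale in edgeR (SE 0.17, adjusted p = 2.6e-06). FAM117B, beside BMPR2, was at -1.12 in edgeR (SE 0.24, adjusted p = 9.3e-04) and at -0.03 with TMM. The neighbours of GREM1 and NOG were not among the listed genes. In the same table no other gene overlaps BMPR2, GREM1 or NOG, and a small nuclear RNA gene lies within BMPR1A.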
